A study of Mus musculus with 12 samples.

Results

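The Ifitm genes Ifitm1, Ifitm2, Ifitm3, Ifitm5 and Ifitm6, 5 of the 19938 genes measured, were followed in donor CD4+ T cells early in a graft-versus-host response. They are the members of the interferon-induced transmembrane family that lie side by side in 1 mouse gene cluster, and the set was chosen because Ifitm2 and Ifitm3 were higher with TCDD than with vehicle. Their differences between those groups are therefore described without a test. Each gene was read from the probe set of that symbol with the highest mean, and all 5 were measured.

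Splenocytes of C57Bl/6 mice, stained with the division dye CFSE, were injected into B6D2F1 hosts, which present foreign antigens of their other parent strain to the donor T cells. All mice were 10 to 12 weeks old. All injections were intraperitoneal. The Vehicle group was injected on days 0 and 1, the TCDD group on day 0 with 15 µg/kg, and the Cl-BBQ group on days 0 and 1 with 2 mg/kg each time, so the compounds differed in dose and schedule, and the host's own cells were exposed too. TCDD, a persistent dioxin, and Cl-BBQ are ligands of AhR, the aryl hydrocarbon receptor, which acts as a transcription factor once bound. On day 2 (48 hr) the donor CD4+ cells with 2 or more divisions were isolated from spleen and lymph node by magnetic beads and sorting. Each group had 4 arrays, given as biological replicates.

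IFITM proteins are small membrane proteins that share a CD225 domain. They hold back the entry of many enveloped viruses by hindering fusion of the viral and cellular membranes, IFITM3 mainly in endosomes and IFITM1 mainly at the cell surface. Interferons induce most of the family; Ifitm5 is the exception, a gene of bone-forming cells, and mouse Ifitm6 is known from myeloid cells. In T cells these genes are studied for their part in resistance to infection and in helper cell differentiation.

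The promoters of Ifitm2 and Ifitm3, picked for their rise with TCDD, are shown with that of Ifitm1 from between them, which lay apart. Each runs from 250 bases before to 50 after the gene's start in RefSeq (GRCm38.p6), 5′ to 3′ on the gene's strand. Capitals mark matches on either strand to 3 motifs: GCGTG, the core bound by AhR with its partner ARNT; 2 copies of GAAA with any 2 bases between them, the interferon-stimulated response element (ISRE); and TTCNNNGAA, the element of STAT dimers (GAS).
Ifitm2, chr7:140955912-140956211, minus strand: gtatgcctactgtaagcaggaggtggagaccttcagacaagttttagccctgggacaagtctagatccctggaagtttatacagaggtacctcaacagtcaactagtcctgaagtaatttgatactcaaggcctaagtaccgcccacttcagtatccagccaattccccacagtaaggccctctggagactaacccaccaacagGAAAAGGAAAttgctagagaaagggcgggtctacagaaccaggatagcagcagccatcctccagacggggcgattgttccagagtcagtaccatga
Ifitm3, chr7:141010695-141010994, minus strand: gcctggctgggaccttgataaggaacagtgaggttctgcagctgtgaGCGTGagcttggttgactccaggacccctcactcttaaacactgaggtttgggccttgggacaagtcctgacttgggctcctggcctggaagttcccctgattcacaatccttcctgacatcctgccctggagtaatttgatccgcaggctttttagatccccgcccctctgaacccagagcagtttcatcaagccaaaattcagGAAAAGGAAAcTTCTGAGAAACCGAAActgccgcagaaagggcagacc
Ifitm1, chr7:140967826-140968125, plus strand: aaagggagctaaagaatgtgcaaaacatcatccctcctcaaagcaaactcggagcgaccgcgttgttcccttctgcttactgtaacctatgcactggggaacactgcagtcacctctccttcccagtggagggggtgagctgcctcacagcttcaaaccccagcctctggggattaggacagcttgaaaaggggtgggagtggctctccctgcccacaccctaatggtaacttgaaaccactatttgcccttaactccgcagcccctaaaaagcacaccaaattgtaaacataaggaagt

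The window of Ifitm2 held 1 ISRE match, at position -46 from the gene's start. That of Ifitm3 held 2, at positions 3 and 20, the later of which overlapped a GAS match at position 14. The longest run of letters common to both windows was caggaaaaggaaa, 13 bases long, which covers the ISRE match of Ifitm2 and the earlier match of Ifitm3. The AhR core was found 1 time in the window of Ifitm3, at position -203, and in none of the other 4 windows. The windows of Ifitm1 and Ifitm5 held none of the 3 motifs, and that of Ifitm6 held 1 GAS match at position -10. Among 32851 RefSeq promoter windows of 300 bases, 32.4% held the AhR core, 3.44% the ISRE and 8.30% the GAS element. A match describes letters only; no binding was measured.

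All values are given as log2 intensity after RMA (robust multi-array averaging), a scale on which a difference of 1 is a 2-fold change. A gene was called when its adjusted p from limma, over all 19938 genes, was under 0.05. A level on an array depends on the probes, so levels are compared between groups and not between genes. In such bulk samples a higher share of expressing cells and more RNA per cell cannot be told apart.

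Ifitm3 showed the widest range of the 5 members. Its 4 Vehicle arrays, in order of replicate, read 10.02, 10.16, 9.34 and 9.21. With Cl-BBQ the values were 10.55, 10.43, 10.51 and 10.22, and with TCDD they were 10.80, 10.93, 11.44 and 11.26. All Vehicle arrays lay below all Cl-BBQ arrays, and all Cl-BBQ arrays below all TCDD arrays, though the highest Vehicle and the lowest Cl-BBQ array were close. The Vehicle arrays formed an upper and a lower pair. Means were 9.68 ± 0.48 (SD, n = 4) for Vehicle, 10.43 ± 0.15 for Cl-BBQ and 11.11 ± 0.30 for TCDD, so TCDD stood 1.43 above Vehicle on the log2 scale, a 2.69-fold difference.

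Ifitm2, another interferon-inducible member, followed the same order with smaller steps. Vehicle arrays read 7.43, 7.61, 7.20 and 7.34, Cl-BBQ arrays 7.71, 7.63, 7.89 and 7.75, and TCDD arrays 7.92, 7.98, 8.15 and 8.19. Again no arrays of different groups overlapped, but neighbouring groups nearly touched. The means were 7.39 ± 0.17 (SD, n = 4) for Vehicle, 7.74 ± 0.11 for Cl-BBQ and 8.06 ± 0.13 for TCDD, with TCDD 0.67 above Vehicle, or 1.59-fold. Of all 19938 genes, 27 had their groups fully separated in this order (0.135%); Ifitm2 and Ifitm3 were among them, having been picked for the outer step.

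**Figure D1:**
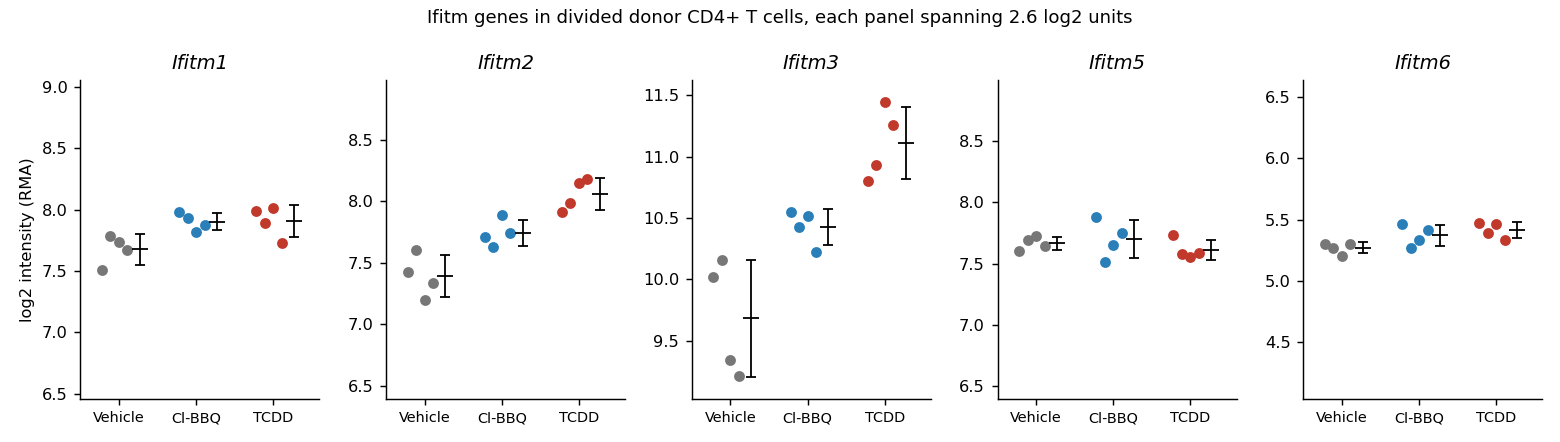
Log2 intensity (y axis) of the 5 Ifitm genes in the Vehicle, Cl-BBQ and TCDD groups (x axis), 1 point per array in order of replicate, with the mean and SD of 4 arrays as bars; every panel spans the same number of log2 units. Ifitm3 climbs from a Vehicle mean of 9.68 through 10.43 with Cl-BBQ to 11.11 with TCDD and Ifitm2 from 7.39 to 8.06, while Ifitm5 and Ifitm6 stay almost level.

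Ifitm1 differed little. Its Vehicle arrays read 7.50, 7.79, 7.74 and 7.67, its Cl-BBQ arrays 7.98, 7.93, 7.82 and 7.88, and its TCDD arrays 7.99, 7.89, 8.01 and 7.73. All Cl-BBQ arrays lay above the Vehicle arrays, whereas TCDD replicate 4 fell within the Vehicle range. The log2 difference from Vehicle was 0.23 with either compound (means 7.67 ± 0.12, SD, n = 4, for Vehicle, 7.90 ± 0.07 for Cl-BBQ and 7.91 ± 0.13 for TCDD).

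Ifitm5 and Ifitm6 showed the smallest differences from Vehicle. Ifitm5, the bone-cell member, ranged from 7.60 to 7.72 with Vehicle, 7.52 to 7.88 with Cl-BBQ and 7.56 to 7.74 with TCDD, and the groups overlapped throughout. Ifitm6 was dim, between 5.21 and 5.48 on all arrays, so dim that a filter on weak signal would remove it. Its TCDD arrays (5.33 to 5.48) lay just above its Vehicle arrays (5.21 to 5.31), at a log2 difference of 0.15. With TCDD, 3 of the 5 members (Ifitm2, Ifitm3 and Ifitm6) had all TCDD arrays above all Vehicle arrays, as had 3.15% of genes. The set was chosen on this contrast, so nothing is read from this count.

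Ifitm2 had 3 probe sets and Ifitm1 had 2, so both were also read on probe sets other than the one used. Ifitm2 was chosen for its rise with TCDD in the same RNA. A rise on its other probe sets is therefore not independent of that choice. On the other Ifitm2 probe sets, Vehicle arrays ranged from 7.21 to 7.50 (10383756) and 6.43 to 6.98 (10553299), and TCDD arrays from 7.79 to 8.23 and 7.22 to 7.40. TCDD thus lay above Vehicle without overlap on all 3, by 0.67 on the probe set used (10569014), 0.65 on 10383756 and 0.61 on 10553299. Cl-BBQ stood 0.35 above Vehicle on each of the 3, but its arrays overlapped those of Vehicle on both other probe sets. They overlapped those of TCDD on 10383756 (Cl-BBQ 7.48 to 7.83). All 3 carry the symbol Ifitm2 in the platform's probe table and were read from the same RNA. They are repeat readings of the same samples and not replicates. Whether all 3 read the same transcript was not tested. The dimmer Ifitm1 probe set (10570434) gave 0.15 with TCDD and 0.08 with Cl-BBQ, where the one used (10558769) gave 0.23 for both. The Ifitm genes are related in sequence, and how far a probe set reads its neighbours' transcripts was not tested.

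**Figure D2:**
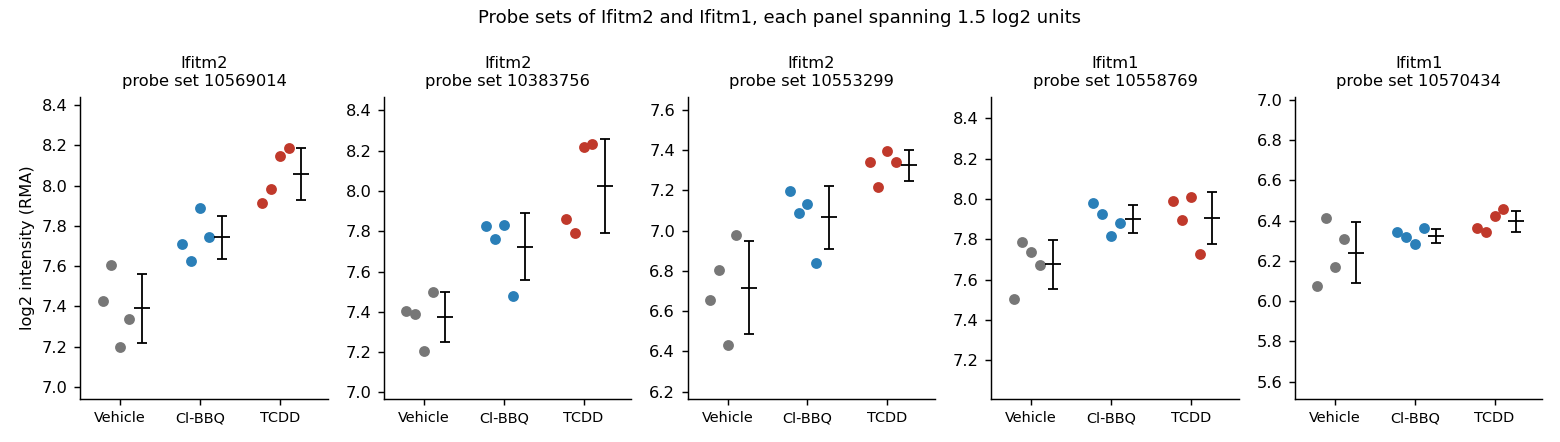
Log2 intensity (y axis) of each probe set of Ifitm2 and Ifitm1 by group (x axis), 1 point per array with mean and SD of 4 arrays; panels span the same number of log2 units. On all 3 Ifitm2 probe sets the TCDD arrays lie above the Vehicle arrays, at log2 differences of 0.61 to 0.67, and the Ifitm1 probe sets show less, at 0.23 and 0.15.

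Cl-BBQ against Vehicle is a contrast that did not choose the set, although it shares the 4 Vehicle arrays with the one that did. Low Vehicle values raise both differences, so it is not independent of that choice. It asks whether the other ligand changed the same genes. Over all genes 0 of the 5 members passed the test by limma, against 0.196% of all genes called; at an unadjusted p under 0.05 there were 3 (Ifitm1, Ifitm2 and Ifitm3), against 7.91% of all genes. The same 3 had all Cl-BBQ arrays above all Vehicle arrays, as had 2.27% of genes. Ifitm3 stood 0.75 above Vehicle on the log2 scale, 1.68-fold, with a 95% interval of 0.35 to 1.14 and an adjusted p of 0.151. Ifitm2 stood 0.35 above, 1.28-fold, with an interval of 0.15 to 0.55 and an adjusted p of 0.189.

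For Ifitm1 the difference was 0.23 (interval 0.05 to 0.40; adjusted p = 0.471). For Ifitm5 it was 0.03 (interval -0.13 to 0.20) and for Ifitm6 0.10 (interval -0.03 to 0.23). These intervals are those of single genes, without correction for the number of genes, so an interval without 0 is no call. Leaving out single arrays moved the Ifitm3 difference between 0.59 (without Vehicle replicate 4) and 0.91 (without Vehicle replicate 2), which removes an array of the lower and of the upper Vehicle pair, and the gene was called in 0 of these 12 fits.

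TCDD against Cl-BBQ sets groups side by side that differ in compound, dose and schedule. It shares the TCDD arrays with the contrast that chose the set, so it is not independent of that choice either. Ifitm3 was 0.68 higher with TCDD on the log2 scale (interval 0.29 to 1.07) and Ifitm2 0.32 higher (interval 0.12 to 0.51), in both without overlap of arrays on the probe set used; on Ifitm2 probe set 10383756 the arrays overlapped. No member passed the test over all genes by limma (adjusted p = 1.00 for all 5), in a comparison that called 3 genes, or 0.015% of all; at an unadjusted p under 0.05 there were 2, Ifitm2 and Ifitm3, against 2.99% of genes. Ifitm1 differed by 0.01 (interval -0.17 to 0.18), Ifitm5 by -0.09 (interval -0.25 to 0.08) and Ifitm6 by 0.04 (interval -0.09 to 0.18).

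The order of the Cl-BBQ arrays in Ifitm2 and Ifitm3 was set beside that in AhR target genes, because the array of replicate 3 was low in several of the latter. Of the 5 AhR target genes listed, 5 rose with TCDD, where 0.873% of all genes were called higher. With Cl-BBQ 0 were called, and 4 had an unadjusted p under 0.05, against 7.91% of all genes. Cyp1b1 and Tiparp were called higher with TCDD than with Cl-BBQ (limma, adjusted p = 0.0356 for both), a comparison that called 0.015% of all genes. That comparison called 0 genes after quantile normalization, without the intensity trend, with only the 2 groups, with each probe set on its own, and without any single TCDD or Vehicle array or Cl-BBQ replicate 4, so both calls were lost there. In Cyp1b1, a cytochrome P450 gene that AhR activates, Cl-BBQ arrays read 8.24, 7.90, 5.93 and 7.89, where Vehicle arrays ran from 6.25 to 6.57 and TCDD arrays from 9.67 to 9.92. Replicate 3 was thus below every Vehicle array in this gene. Placed as a percentage of the way from the Vehicle mean to the TCDD mean on the log2 scale, it stood at -12.5% for Cyp1b1, -13.8% for Tiparp, an ADP-ribosyltransferase, 15.2% for Nqo1, a quinone reductase, and 16.6% for Ahrr, the AhR repressor, the lowest of the 4 Cl-BBQ arrays in each. In Cyp1a1, another cytochrome P450 gene, it did not stand apart: it was at 9.99%, beside replicate 2 at 10.2%, with replicates 1 and 4 at 72.9% and 26.98%.

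In Ifitm3 the same array stood at 58.3% and in Ifitm2 at 74.3%. The other 3 Cl-BBQ arrays ran from 37.96% to 60.9% and from 35.0% to 53.0%. On the probe sets used, replicate 3 was thus the highest of the 4 Cl-BBQ arrays in Ifitm2 and below replicate 1 in Ifitm3. On Ifitm2 probe set 10553299 it read 7.13, below replicate 1 at 7.20. On 10383756 it was level with replicate 1 (7.83 and 7.82). In Ifitm1, which differed little between groups, replicate 3 was the lowest of the 4 Cl-BBQ arrays, at 60.7%. The others ran from 88.1% to 132.7% there. These positions rest on 1 array and were not tested.

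**Figure D3:**
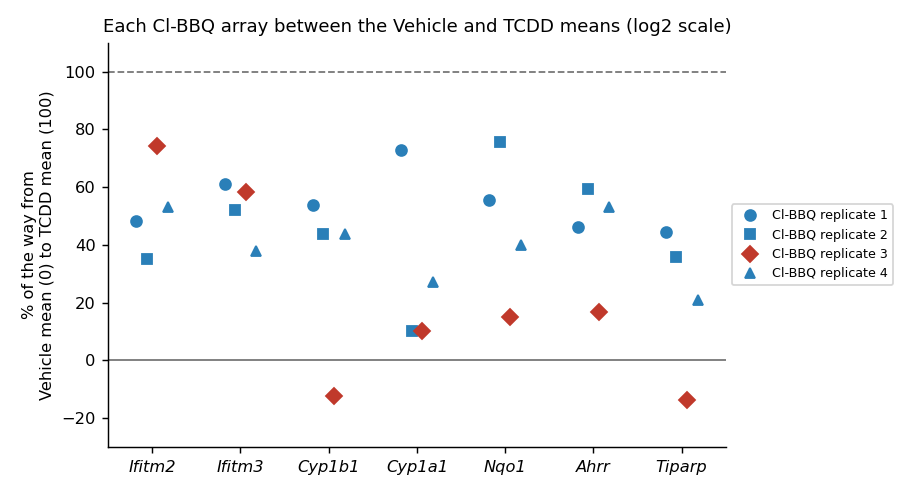
Position of each Cl-BBQ array (symbols, replicate 3 in red) as a percentage of the way from the Vehicle mean (lower line) to the TCDD mean (upper dashed line) on the log2 scale (y axis), for Ifitm2, Ifitm3 and 5 AhR target genes (x axis). Replicate 3 lies at 74.3% for Ifitm2 and 58.3% for Ifitm3, at -12.5% for Cyp1b1 and 16.6% for Ahrr, and level with replicate 2 for Cyp1a1.

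On the chromosome the cluster runs in the order Ifitm5, Ifitm2, Ifitm1, Ifitm3, Ifitm6 in RefSeq (GRCm38.p6), so Ifitm1, with its small difference, lies between Ifitm2 and Ifitm3. Around the cluster, 22 of 34 genes annotated within 200 kb on either side were measured. With TCDD 0 of the 22 were called by limma, and 1 had an unadjusted p under 0.05, against 8.69% of all genes. Their median log2 difference from Vehicle was 0.03, beside 0.00 for all genes. The largest was that of B4galnt4, a glycosyltransferase gene and the nearest measured neighbour on the Ifitm6 side, at 0.29 (adjusted p = 0.129), followed by Urah, an enzyme gene of urate breakdown, at 0.12. With Cl-BBQ 0 of 22 were called and 1 had an unadjusted p under 0.05, against 7.91% of all genes. The median was 0.06, beside 0.01 for all genes. The largest differences were those of Lrrc56 at 0.22 and Pkp3, a desmosome component, at 0.11. Between TCDD and Cl-BBQ 0 were called, and B4galnt4 (0.21) and Lmntd2 (-0.14) differed most.

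**Figure D4:**
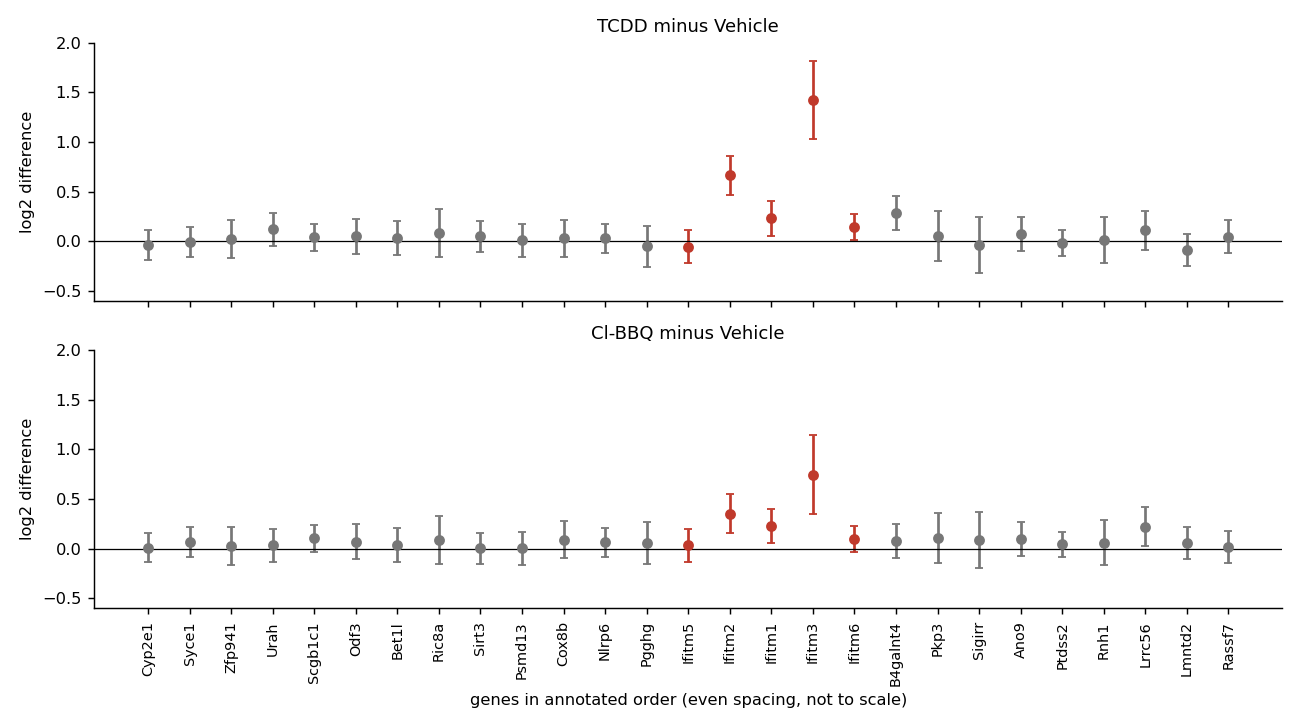
Log2 difference from Vehicle (y axis) with its 95% interval for the 5 Ifitm genes (red) and the 22 measured neighbours (grey), in annotated order with even spacing (x axis), for TCDD (upper panel) and Cl-BBQ (lower panel). The Ifitm genes were chosen on the TCDD difference, so their intervals in the upper panel are no test. With TCDD, Ifitm3 lies at 1.43 and Ifitm2 at 0.67, and the neighbours range from -0.09 to 0.29.

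Outside the cluster, Ifitm7, a family member on another chromosome, had Vehicle values of 6.97 to 7.19 and TCDD values of 7.20 to 7.43, at a log2 difference of 0.19 (adjusted p = 0.412); with Cl-BBQ it was 0.18 (adjusted p = 0.572). Ifitm10 differed by 0.03 and 0.05. Of 5 other genes with a CD225 domain, 0 were called in any comparison, also at an unadjusted p under 0.05. Syndig1l and Prrt1, which are known from synapses, showed the largest differences with TCDD, at 0.13 and 0.11, and Prrt1 and Syndig1 with Cl-BBQ, at 0.14 and 0.13. Between the compounds Trarg1 (-0.08) and Syndig1 (-0.06) differed most. Of 12 genes for partners of IFITM proteins or for enzymes that modify them, 0 were called with TCDD or with Cl-BBQ. At an unadjusted p under 0.05 there were 2 with TCDD and 1 with Cl-BBQ, against 8.69% and 7.91% of all genes. Cd81, a tetraspanin that associates with IFITM1, differed by -0.24 with TCDD (adjusted p = 0.154) and -0.19 with Cl-BBQ, Setd7, a methyltransferase, by -0.17 with TCDD, and Nedd4, a ubiquitin ligase of IFITM3, by 0.18 with Cl-BBQ. Zmpste24, a membrane protease that acts with IFITM proteins, was 0.10 higher with TCDD than with Cl-BBQ, where 0 of the 12 were called, also at an unadjusted p under 0.05.

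Among 32 measured interferon-stimulated genes other than the Ifitm family, 2 rose with TCDD and 0 fell, where 0.873% of all genes were called higher and 0.366% lower (1.24% in either direction). At an unadjusted p under 0.05, in either direction, there were 12 of the 32, against 8.69% of all genes. Of the 32 differences, 22 were above 0. All TCDD arrays lay above all Vehicle arrays in 5 of these genes, as in 3.15% of all genes, and below them in 2. The 2 called genes encode guanylate-binding proteins. Gbp3 rose by 0.41 on the log2 scale or 1.33-fold (10.01 ± 0.15 against 9.60 ± 0.15, SD, n = 4, limma, adjusted p = 0.0447). Gbp7 rose by 0.35 or 1.28-fold (10.77 ± 0.14 against 10.41 ± 0.13, adjusted p = 0.0274). The count was 0 after median centring and with each probe set tested on its own, and between 0 and 2 with single arrays left out, reaching 0 without TCDD replicate 3 or 4 or Vehicle replicate 3 or 4. The list's differences ran from -0.21 to 0.41 with a median of 0.07. Ifitm2 and Ifitm3 were picked on this contrast, so the list is not ranked against them. Irf7, a transcription factor of the interferon response, differed by -0.01 (adjusted p = 0.997) and Ly6e, another interferon-induced membrane protein that acts on viral entry, by 0.08 (adjusted p = 0.719).

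With Cl-BBQ 0 of the 32 were called by limma, 9 had an unadjusted p under 0.05 (7.91% of all genes had), and the median was 0.05. The count of calls was 1 without Cl-BBQ replicate 1. The largest differences were those of Gbp5 at -0.32 (adjusted p = 0.313) and Mx1, an antiviral GTPase, at -0.25. Irf7 differed by 0.02 and Ly6e by 0.10. Between TCDD and Cl-BBQ 0 were called, with Gbp3 0.36 and Ifit3b 0.21 higher with TCDD.

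Of 16 genes for interferon receptors and their signalling, 1 rose and 1 fell with TCDD, where 1.24% of all genes were called in either direction. At an unadjusted p under 0.05 there were 4 of the 16, against 8.69% of all genes. Ifngr1, the ligand-binding chain of the interferon-γ receptor, rose by 0.38 on the log2 scale (11.11 ± 0.11 against 10.73 ± 0.08, SD, n = 4; adjusted p = 0.00468). Irf8, a transcription factor, fell by 0.54, 1.45-fold (8.42 ± 0.10 against 8.96 ± 0.24; adjusted p = 0.0411). With Cl-BBQ 0 of the 16 were called and 4 had an unadjusted p under 0.05, against 7.91% of all genes. Irf8 differed by -0.40 (limma, adjusted p = 0.313) and Ifngr2, the other receptor chain, by -0.38 (adjusted p = 0.463). Ifngr2 was lower still with TCDD, opposite to Ifngr1, but was not called there. Between TCDD and Cl-BBQ 0 were called, also at an unadjusted p under 0.05, and the largest differences were those of Ifng, the gene of interferon-γ itself, at 0.19 and Ifngr2 at -0.15.

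**Figure D5:**
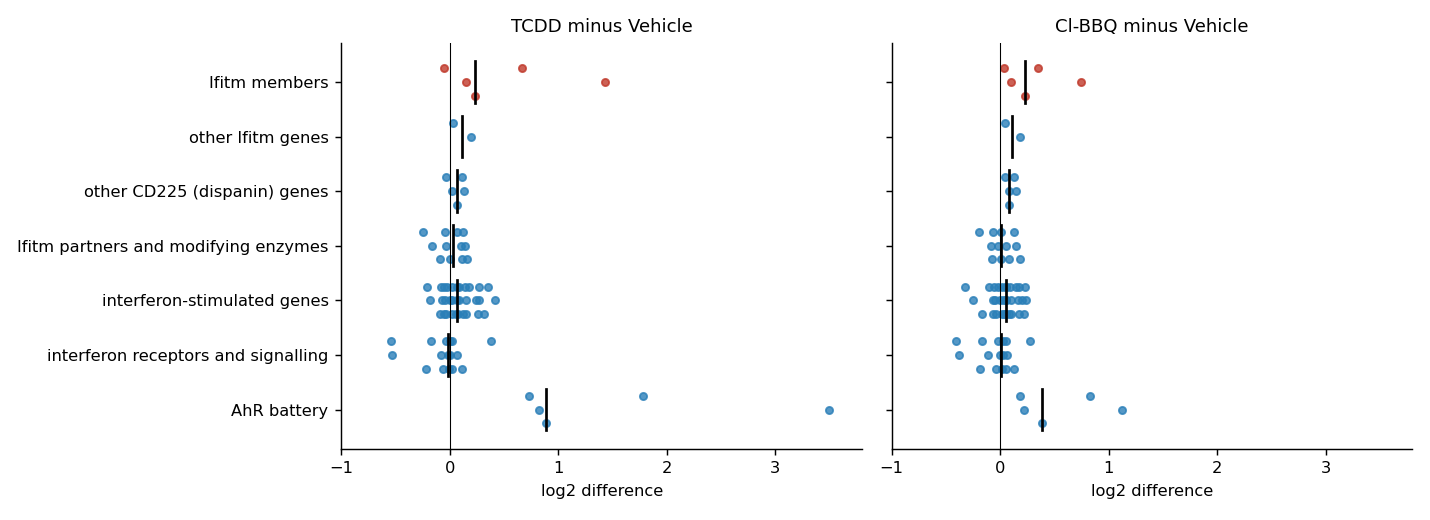
Log2 difference from Vehicle (x axis) of each measured gene (points) in the Ifitm members and 6 other gene lists (y axis), with the list median as a black bar, for TCDD (left) and Cl-BBQ (right). With TCDD, interferon-stimulated genes run from -0.21 to 0.41 and the AhR target genes from 0.73 to 3.49. Ifitm2 at 0.67 and Ifitm3 at 1.43 were picked for this difference.

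The genes closest to Ifitm3 in pattern, by Pearson correlation of log2 values over the 12 arrays, were Ctla4, an inhibitory receptor (r = 0.969), Gbp7 (r = 0.958), Sytl2, a vesicle-docking protein (r = 0.957), Ifitm2 (r = 0.957) and Lair1, an inhibitory collagen receptor (r = 0.9504). Those closest to Ifitm2 were Aqp3, a water and glycerol channel (r = 0.960), Ifitm3, Ppp3ca, a catalytic subunit of calcineurin (r = 0.954), Pcyt1b, an enzyme of phosphatidylcholine synthesis (r = 0.939), and AW112010 (r = 0.938). These 12 values share the group differences. Ifitm1 correlated at 0.564 with Ifitm3 and 0.537 with Ifitm2, and its own closest genes were Lcn12 (r = 0.925), Olfr225 (r = 0.901), Mrgprb1 (r = 0.895), 2810459M11Rik (r = 0.876) and Mc3r (r = 0.855).

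With each group's mean removed, Ifitm2 and Ifitm3 still varied together (r = 0.767), whereas Ifitm1 did not follow Ifitm2 (r = -0.258) or Ifitm3 (r = -0.096). Cyp1b1 had r = 0.027 with Ifitm3, a value that rests largely on its Cl-BBQ arrays. The SD of Cyp1b1 was 1.05 there, with replicate 3 at 5.93, against 0.14 with Vehicle and 0.12 with TCDD. On the other Ifitm2 probe sets the correlation with Ifitm3 was 0.508 and 0.204. The gene closest to Ifitm3 within groups was Ctla2a, a cysteine protease inhibitor (r = 0.966), then Arl14 (r = 0.891), Gm4841 (r = 0.885), Gbp7 (r = 0.878) and Cbfb, a partner of RUNX factors (r = 0.869). Ctla2a read 7.46, 7.55, 6.48 and 6.19 on the Vehicle arrays, the same upper and lower pair as Ifitm3, and 6.99, 6.89, 7.66 and 7.39 with TCDD, again split as Ifitm3 was. It was not called with TCDD (0.31; adjusted p = 0.839).

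For Ifitm2 the closest within groups were Vmn1r15 (r = 0.901), Gm5113 (r = 0.886), Slc44a1 (r = 0.886), Tnfrsf4, the receptor OX40 (r = 0.881), and Slc26a10 (r = 0.881), and for Ifitm1 Olfr1325 (r = 0.930), Glt6d1 (r = 0.928), Rbm12b2 (r = 0.918), Tmem190 (r = 0.917) and Tnfrsf19 (r = 0.912). Each is among the highest correlations over all measured genes and rests on few arrays, and several of these genes are dim, so the values describe these arrays only.

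Array medians ran from 7.11 to 7.24. The 10 measured CD4 T cell genes averaged 11.93 to 12.12 on all arrays, with 0 called in any comparison. With Vehicle, the highest group mean was 9.92 among the CD8 T cell genes and 11.06 among the endothelial and stromal genes. Levels are not compared between genes, so they do not measure purity. Of the cells a sort could let through, myeloid cells are known for Ifitm3 and Ifitm6. Of 11 monocyte and macrophage genes 1 was called with TCDD, where 1.24% of all genes were called. It was the chemokine receptor gene Ccr2, which activated T cells also express (log2 difference 1.34, limma, adjusted p = 0.00432). The list averaged 6.67 to 6.78 on Vehicle arrays and 6.85 to 6.87 on TCDD arrays. Without Ccr2, a choice made after its value was seen, these ranges were 6.65 to 6.72 and 6.65 to 6.78 and overlapped, with 0 of 10 genes called. The defining markers Csf1r, Lyz2, Cd14 and Adgre1 had group means of 5.46 to 6.43. The highest group mean among the 10 genes was 8.31 with Vehicle, 8.27 with TCDD and 8.24 with Cl-BBQ. How many myeloid cells were present was not tested.

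Of 10 neutrophil genes 0 were called, also at an unadjusted p under 0.05, and the list averaged 5.81 to 5.95 on Vehicle and 5.87 to 6.02 on TCDD arrays. In the B cell list 1 of 8 was called with TCDD, Cd22 (log2 difference -0.95, limma, adjusted p = 0.00364), and in the NK cell list 1 of 6, Eomes (-0.64, adjusted p = 0.018), beside 1.24% of all genes. Both were lower where Ifitm3 was higher, and their part in the result was not tested. No dendritic cell, CD8 T cell, erythroid, platelet, or endothelial and stromal gene was called with TCDD. Of these 24 genes 1 had an unadjusted p under 0.05, against 8.69% of all genes. With Cl-BBQ 0 genes of the marker lists were called.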

How the data were processed

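Each of 12 arrays held RNA of donor CD4+ T cells, 4 per group. The deposited table holds log2 intensities of 35556 probe sets after RMA by the authors, per the submitters' processing notes; the log2 scale was read from the values (2.49 to 14.2), and the RMA software and its settings are not stated there. Gene symbols came from the platform's probe table: 21789 probe sets had 1 symbol, 1621 several and 12146 were not listed. The probe set with the highest mean was kept for each of 19938 genes.

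The model, run in limma 3.58.1 under R 4.3.3, took all 12 arrays and a mean for each of the 3 groups, with an intensity trend, 9 residual degrees of freedom, two-sided contrasts and Benjamini-Hochberg adjustment over all genes. Intervals are at the 95% level. The fit was tested on simulated data. For arrays, their number limits the precision, and p-values measure only the spread between these samples. List members without a probe set of their own symbol were not analysed here. Named were the Ifitm genes, Irf7, Ly6e, up to 4 called members per list or, with none called, the 2 that differed most (for marker lists only called genes and defining markers are given), neighbours likewise, and the 5 genes closest to Ifitm1, Ifitm2 and Ifitm3. Members and lists were chosen with earlier results of these data known. All 5 members matched a RefSeq promoter. Same-numbered TCDD and Cl-BBQ arrays deviated together (r of 0.113 to 0.606 across genes, 4 of 4 pairs over 0.1), whereas 2 of 4 TCDD and Vehicle pairs and 0 of 4 Cl-BBQ and Vehicle pairs did so. Alternatives were centring, quantile normalization, averaged probe sets, a filter on dim genes, no trend, robust moderation, fits of 2 groups, array weights, a replicate block, each probe set on its own and each array left out. Figures were drawn with matplotlib 3.10.9 (Python 3.11.15).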

Additional observations from a re-analysis of the deposited data

Results flagged for a closer look

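In Ifitm5 the array of TCDD replicate 1, at 7.74, lay apart from the other 3 TCDD arrays, which read 7.56 to 7.58; its gap to the nearest took 0.854 of the group's range, above the 95% critical value of Dixon's test for 4 samples. It was the only such array in 15 tests (5 genes in 3 groups), of which chance gives about 1 in 20. The value stays within the range of the Cl-BBQ arrays.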

How the results depend on the processing

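Under the 10 alternatives that keep all arrays (9 for Ifitm6, which the filter on dim genes removes; testing each probe set on its own was added after the data were seen), every member kept its direction and its side of the threshold in the comparisons of Cl-BBQ with Vehicle and of TCDD with Cl-BBQ. The Ifitm3 difference from Vehicle ran from 0.70 to 0.77 with Cl-BBQ (lowest adjusted p = 0.0806, with the replicate block, where the difference was 0.75) and from 1.36 to 1.45 with TCDD; for Ifitm2 the ranges were 0.34 to 0.37 and 0.64 to 0.69. The replicate block changed no member's call in Cl-BBQ against Vehicle or TCDD against Cl-BBQ; in TCDD against Vehicle the members were not tested. With single arrays left out, Cl-BBQ against Vehicle ranged from 0.59 to 0.91 for Ifitm3 (adjusted p = 0.0600 to 0.450), from 0.29 to 0.42 for Ifitm2 and from -0.026 to 0.095 for Ifitm5, which was reversed without Cl-BBQ replicate 1. TCDD against Cl-BBQ ranged from -0.030 to 0.065 for Ifitm1, which was reversed in 4 of these fits (without Cl-BBQ replicate 3 or 4, or TCDD replicate 1 or 3). TCDD against Vehicle ranged from 1.27 to 1.59 for Ifitm3 and from 0.60 to 0.74 for Ifitm2.

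Counts of called genes moved more. With TCDD 247 genes became 160 after median centring, 391 with array weights, 397 with the block and 150 to 321 with single arrays left out. With Cl-BBQ 39 became 0 with each probe set on its own, 8 after centring, 11 with 2 groups, 18 without a trend, 71 after quantile normalization, 111 with the block and 3 to 61 with single arrays left out. Between the compounds 3 became 0 to 9. The cause was not tested.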
